A study of Mus musculus with 120 samples.

Results

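Methylation differences inside the bodies of short and medium-sized protein-coding genes are described here for App-NLGF knock-in mice. Of the 8961 windows of 1 kb that the authors called as differently methylated, 1043 lay on chromosomes 1 to 19, overlapped a coding gene, had a longest overlapped coding gene under 100 kb, and lay more than 1 kb from the start and end of every coding gene. They were chosen by position in the RefSeq annotation of GRCm38.p6, whose autosomal coordinates are those of mm10, and neither the size nor the sign of a difference was used. All 1043 lay wholly inside a gene body, in 964 genes, and 5 overlapped more than 1 coding gene. The annotation used gives no exons, so exon and intron were not separated, and 89 windows (8.53%) also overlapped a noncoding gene.

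Whole-genome bisulfite sequencing was run on 120 libraries, 60 of hippocampus and 60 of blood. Each tissue had wild-type mice and mice with the App-NLGF knock-in, labelled APP-nlgf, at postnatal weeks 3, 8 and 24. Each of the 12 groups held 10 libraries, 5 of each sex. App-NLGF is an edited form of the mouse App gene that carries a humanised amyloid-beta segment with familial Alzheimer mutations, so the precursor protein is made from the gene's own promoter and no Cre or other agent is named for either genotype. The background strain, and whether blood and hippocampus came from the same animals, are not stated in the labels. The table holds no levels, so neither tissue could be checked against marker genes.

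In mammals DNA methylation sits mainly on the cytosine of CG dinucleotides (CpG). Most CpGs inside genes are methylated, whereas promoters dense in CpG, called CpG islands, are usually not. Many genes have alternative promoters within the body, each with its own transcript start, and a window inside a gene can therefore hold a start of that gene even though it is far from the gene's outer boundary. Genes of developmental transcription factors often lie in wide unmethylated CpG-rich domains that reach from the promoter into the body.

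The table gives, for each window, the difference in methylation in percentage points and the authors' p-value and adjusted p-value. Values per library, levels and coverage were not analysed here, so no spread between animals can be given and the depth behind each difference is unknown. A positive value was taken to mean more methylation in App-NLGF than in wild type, from the name of the comparison, and every direction would turn if that order were the reverse. All windows had an adjusted p under 0.1 and a difference of at least 10 points. A window outside the lists may not have differed, may have missed a threshold or may have been too thinly covered. Windows are not animals, and intervals on shares of windows cover their counting only.

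Among the starts that lay inside windows lower in blood at week 8, most were rich in CpG. RefSeq start sequences are shown first for 4 such genes, because the results below turn on how CpG-rich these starts are. Each line gives the 250 bases before a start, 5′ to 3′ on the gene's strand, from the GRCm38.p6 RefSeq promoter table, with every CG in capitals. Pxylp1 encodes a phosphatase of proteoglycan synthesis, Shank3 a scaffold of the excitatory postsynapse, Gpx4 the glutathione peroxidase that reduces lipid peroxides, and Synj1 a phosphatase of synaptic vesicle recycling.
Pxylp1, chr9:96889475-96889724, minus strand: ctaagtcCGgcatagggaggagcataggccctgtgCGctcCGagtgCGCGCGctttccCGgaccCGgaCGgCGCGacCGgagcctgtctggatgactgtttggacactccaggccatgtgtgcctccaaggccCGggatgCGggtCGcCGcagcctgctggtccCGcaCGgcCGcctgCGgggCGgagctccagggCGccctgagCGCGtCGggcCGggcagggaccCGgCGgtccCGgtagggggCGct
Shank3, chr15:89499358-89499607, plus strand: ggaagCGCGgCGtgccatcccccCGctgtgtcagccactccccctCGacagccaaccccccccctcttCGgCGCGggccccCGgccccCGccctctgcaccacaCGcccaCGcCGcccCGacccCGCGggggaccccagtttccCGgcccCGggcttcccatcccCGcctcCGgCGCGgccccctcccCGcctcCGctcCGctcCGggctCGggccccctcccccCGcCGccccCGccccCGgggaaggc
Gpx4, chr10:80053315-80053564, plus strand: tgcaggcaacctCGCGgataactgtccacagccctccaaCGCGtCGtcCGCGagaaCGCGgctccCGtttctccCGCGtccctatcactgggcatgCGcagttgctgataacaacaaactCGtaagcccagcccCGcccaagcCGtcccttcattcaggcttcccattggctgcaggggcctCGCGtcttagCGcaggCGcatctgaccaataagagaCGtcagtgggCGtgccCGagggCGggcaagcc
Synj1, chr16:91011096-91011345, minus strand: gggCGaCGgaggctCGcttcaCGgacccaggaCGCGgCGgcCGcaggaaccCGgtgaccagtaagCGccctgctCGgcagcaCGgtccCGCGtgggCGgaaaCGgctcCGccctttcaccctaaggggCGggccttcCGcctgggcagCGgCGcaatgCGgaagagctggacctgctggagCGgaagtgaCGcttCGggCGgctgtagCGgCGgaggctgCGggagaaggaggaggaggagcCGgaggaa

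Counted over 300 bases, including the 50 after the start, these held 38 CG at Pxylp1, 40 at Shank3, 31 at Gpx4 and 36 at Synj1. Over all 31396 promoter entries on the autosomes the median was 7, 94.8% held at least 1 CG and 35.2% held 15 or more. CG reads the same on both strands and overlaps no other motif searched here. The authors' deposited table gives these windows in blood at week 8 at -13.0 points for Pxylp1, -10.002 for Shank3, -12.2 for Gpx4 and -14.1 for Synj1.

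For contrast, 4 starts with fewer CG are shown in the same way. Igf2, the growth factor insulin-like growth factor 2, and Lmna, which encodes lamins A and C of the nuclear envelope, lay in windows of blood at week 8. Lmtk3, a membrane kinase, and Aspa, the oligodendrocyte enzyme that splits N-acetylaspartate, lay in windows of hippocampus at week 3.
Igf2, chr7:142661272-142661521, minus strand: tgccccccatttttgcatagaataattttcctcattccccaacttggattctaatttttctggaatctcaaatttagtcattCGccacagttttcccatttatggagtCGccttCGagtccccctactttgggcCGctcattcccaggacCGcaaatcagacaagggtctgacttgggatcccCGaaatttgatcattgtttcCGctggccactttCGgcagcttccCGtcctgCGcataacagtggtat
Lmna, chr3:88503353-88503602, minus strand: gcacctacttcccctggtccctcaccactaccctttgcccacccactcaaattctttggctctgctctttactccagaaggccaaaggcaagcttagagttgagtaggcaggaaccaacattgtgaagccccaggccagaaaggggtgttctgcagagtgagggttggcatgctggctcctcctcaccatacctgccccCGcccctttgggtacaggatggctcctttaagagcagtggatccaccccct
Lmtk3, chr7:45785097-45785346, plus strand: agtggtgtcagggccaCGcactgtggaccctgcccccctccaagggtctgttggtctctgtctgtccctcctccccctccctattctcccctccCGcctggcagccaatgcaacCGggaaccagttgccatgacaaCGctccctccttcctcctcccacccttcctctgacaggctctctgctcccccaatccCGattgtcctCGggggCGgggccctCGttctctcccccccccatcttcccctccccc
Aspa, chr11:73324638-73324887, minus strand: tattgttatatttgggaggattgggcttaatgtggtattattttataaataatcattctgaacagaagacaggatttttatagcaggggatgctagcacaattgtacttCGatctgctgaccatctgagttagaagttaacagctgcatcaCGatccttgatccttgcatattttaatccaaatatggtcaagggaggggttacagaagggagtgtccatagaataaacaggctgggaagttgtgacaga

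These starts held 14 CG at Igf2, 1 at Lmna, 11 at Lmtk3 and 2 at Aspa over 300 bases. The authors' deposited table gives -13.8 points for Igf2, -12.5 for Lmna, -16.9 for Lmtk3 and -10.5 for Aspa.

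One window of Pde2a, a phosphodiesterase that breaks down cyclic nucleotides, holds both mature strands of miR-139. They are printed because they show a second kind of transcript within a window, with the seed (bases 2 to 8) in capitals, from RefSeq on GRCm38.p6.
mmu-miR-139-5p, chr7:101475382-101475403, plus strand: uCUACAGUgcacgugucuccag
mmu-miR-139-3p, chr7:101475418-101475439, plus strand: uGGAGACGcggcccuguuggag

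The seeds of the pair differ. That window (chr7:101475001-101476000) was lower by 16.6 points in blood at week 8 in the authors' deposited table (value -16.6, adjusted p = 0.0967).

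The 6 lists differed in how many of these gene-body windows they held and in which direction they pointed. Blood at week 8 held 532 of the 1043, of which 497 were lower in App-NLGF and 35 higher. The share higher was 6.58% (95% Clopper-Pearson interval 4.62 to 9.03). Over the genome the authors called 0.196% of the windows tested in blood at week 8, 0.175% as lower and 0.0218% as higher. Gene-body windows in the list made up 0.152% of the 349312 windows of the 1 kb grid that meet the same position rule. The first counts windows that were tested and the second all windows of the grid, covered or not. Of the 49 windows of at least 15 points in this list 28.6% were higher, and of the 234 at an adjusted p under 0.01 2.56%.

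At week 3 blood held 119 such windows, of which 72 were higher (60.5%, interval 51.1 to 69.3). The background there was 0.0495% of windows tested (0.0313% higher, 0.0182% lower), and 0.0341% of the grid windows that meet the rule were called. Blood at week 24 held 53, of which 41 were higher (77.4%, interval 63.8 to 87.7), against a background of 0.0244% (0.0202% higher, 0.00426% lower) and 0.0152% of rule-meeting grid windows. Week 8 was thus the age at which blood windows were nearly all lower, and the lists on either side of it were mostly higher. No test of the difference between ages could be made from the table.

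In hippocampus at week 3, 124 windows lay inside these genes, of which 96 were lower and 28 higher (22.6% higher, interval 15.6 to 31.0). The background was 0.044% of windows tested (0.013% higher, 0.0311% lower), and the called share of rule-meeting grid windows was 0.0355%. At week 8 there were 89, of which 50 were higher (56.2%, interval 45.3 to 66.7), with a background of 0.0318% (0.0174% higher, 0.0145% lower) and a share of 0.0255%. Week 24 held 126, of which 68 were higher (54.0%, interval 44.9 to 62.9), with a background of 0.0408% (0.0239% higher, 0.0169% lower) and a share of 0.0361%. The intervals at weeks 8 and 24 contain an even split, and among the 50 windows of at least 15 points at week 24 the share higher was 48.0%. In all 6 lists the called share of rule-meeting grid windows was below the background. The shares divide by unlike sets, all grid windows, covered or not, against windows tested, so nothing is read from that order.

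**Figure D1:**
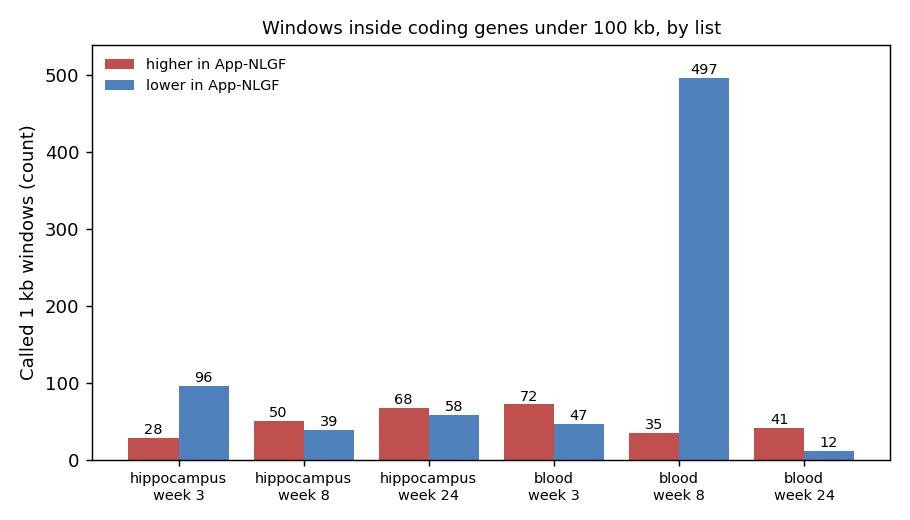
Number of called 1 kb windows (y axis) inside coding genes under 100 kb in each tissue and week list (x axis), with windows higher in App-NLGF in red and lower in blue. The bar of 497 lower windows in blood at week 8 exceeds every other bar, and blood at weeks 3 and 24 and hippocampus at weeks 8 and 24 have more higher than lower windows.

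In each list the gene-body windows pointed mostly the way of the whole list or were near an even split. Over whole lists 29.5%, 54.6% and 58.6% of windows were higher in hippocampus at weeks 3, 8 and 24, and 63.2%, 11.1% and 82.5% in blood. Within blood at week 8 the share lower depended on the place of the window. Windows at coding gene ends (within 1 kb of a start or end) were lower in 99.4% of 1872, and those inside genes under 100 kb in 93.4%. Inside genes of 100 to 500 kb 84.8% of 330 were lower, inside genes of at least 500 kb 73.6% of 163, and outside coding genes 76.3% of 1380. These shares were not tested against each other.

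The differences were of moderate size. Median absolute differences were 13.9 points in hippocampus at week 3, 12.9 at week 8 and 13.7 at week 24, and 13.0, 11.5 and 12.3 points in blood. Of the blood windows at week 8, 49 of 532 (9.21%) reached 15 points, against 45 of 124 (36.3%) in hippocampus at week 3. The same list held most of the small adjusted p-values, with 234 of 532 windows (44.0%) under 0.01, against 6 of 124, 4 of 89 and 8 of 126 in hippocampus and 17 of 119 and 3 of 53 in blood at weeks 3 and 24. Blood at week 8 therefore combined the smallest median difference with the largest share of windows at small adjusted p. Across the 1043 windows the authors' deposited table runs from -37.0 points, at Fyco1 in hippocampus at week 24, to 34.5 points, at Tyr in blood at week 8.

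**Figure D2:**
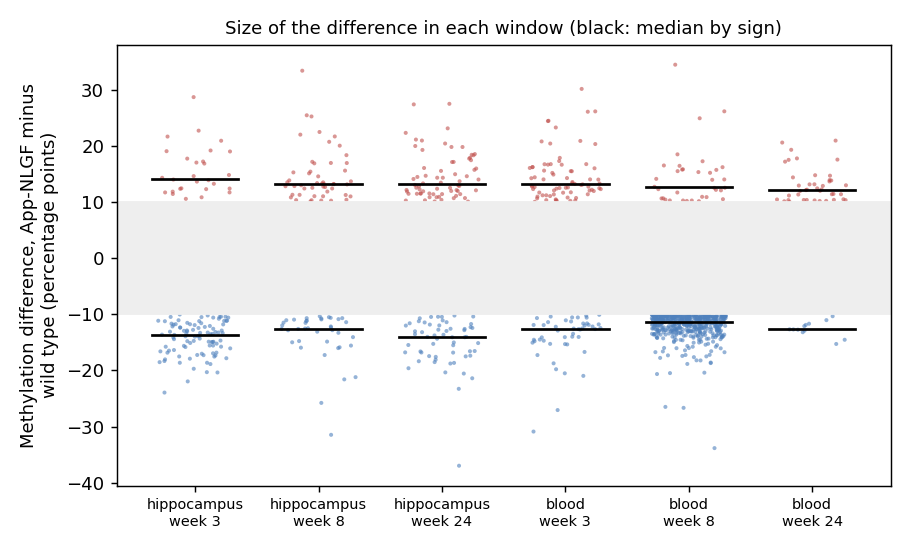
Difference in methylation in percentage points, App-NLGF minus wild type (y axis), for each of the 1043 windows, by list (x axis); each point is a window, red higher and blue lower, black lines mark the median of each sign, and the grey band covers differences under 10 points, which the deposited table does not hold. Lower windows of blood at week 8 lie close to the band, with a median of -11.4 points.

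Windows with large differences in hippocampus at week 3 were found in both directions. Cdh19, a cadherin of glial and neural crest cells, had the largest increase in the authors' deposited table, 28.8 points at chr1:110919001-110920000 (adjusted p = 0.00914). Its window lay 31.0 kb from the nearer end of a gene of 89.6 kb. Pate2 at 22.8 points, the vomeronasal receptor gene Vmn2r5 at 21.7, Tmem236 at 21.0 and Skint4 at 19.2 followed in the authors' deposited table. The largest decreases there were -23.9 points at Defb41, a beta-defensin, -22.0 at Vmn2r114, -20.4 at Ankar, -20.3 at Tnpo1, a nuclear import receptor, and -19.7 at Sh2d6. The smallest adjusted p belonged to Adamts5, a protease that cleaves aggrecan, with -13.3 points in the authors' deposited table (adjusted p = 0.000689). The next 3 by adjusted p were also lower there, Ywhaq, a 14-3-3 protein, at -15.6 points, Lmtk3 at -16.9 and Ubxn10 at -15.8.

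Hippocampus at week 8 had large windows of both signs. Ggact, which encodes a cyclotransferase that acts on gamma-glutamylamines, stood at 33.5 points in the authors' deposited table (adjusted p = 0.0988, chr14:122900001-122901000). Sirt5, a mitochondrial deacylase, stood at 25.3 points with a smaller adjusted p of 0.00402 (chr13:43390001-43391000) in the authors' deposited table. Pramel33 at 25.5, Akr1c20 at 22.5 and Naalad2 at 21.7 points were the other large increases there. Lrrc4b, a synaptic adhesion protein, was the largest decrease in the authors' deposited table, at -31.5 points (adjusted p = 0.0767, chr7:44455001-44456000). It was followed there by Olfr91 at -25.8, Trub1, a pseudouridine synthase, at -21.6, Cyyr1 at -21.2 and Luc7l3, a splicing factor, at -17.3. Olfr91 also had a higher window in this list, at 17.0 points. By adjusted p the list began with Pard6g, a cell polarity protein, at -15.6 points (adjusted p = 0.0001) and Fam91a1 at 10.3 (adjusted p = 0.00111) in the authors' deposited table. Nr1d2, a repressor of the circadian clock, stood at 11.0 points there (adjusted p = 0.014). Fam91a1 also had 1 lower window in this list.

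Hippocampus at week 24 held the largest decrease among all 1043 windows. Fyco1, an adaptor that moves autophagosomes along microtubules, stood at -37.0 points in the authors' deposited table (adjusted p = 0.0823, chr9:123849001-123850000). Atg13, a part of the complex that starts autophagy, stood there at -21.4 points (adjusted p = 0.0382, chr2:91701001-91702000). Vmn2r79 at -23.3, Snx27, an endosomal recycling protein, at -20.6 and Camkv, a kinase-like synaptic protein, at -19.6 were the other large decreases in the authors' deposited table. Increases in the authors' deposited table were led by Cfap53, a ciliary protein, at 27.6 points, Sult2a5 at 27.5, Npcd at 23.2, Azgp1 at 22.4 and Rsph3a at 21.2. The smallest adjusted p, 2.49e-05, was shared there by Cwf19l2 at -17.6 points and Nckap5l at 12.2. Gkap1 at -10.7, the transcription factor gene Atf2 at 18.4 and Fap at 11.5 points followed by adjusted p in the authors' deposited table.

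Blood at week 3 also had large windows of both signs. Vmn2r92 stood at 30.2 points in the authors' deposited table, and Sp100, a protein of nuclear bodies, at 26.2 (adjusted p = 0.00198, chr1:85691001-85692000). Barx2, a homeobox factor, at 26.1, Klra6, a natural killer cell receptor, at 24.5 and Zfp775 at 23.3 points followed there. Decreases in the authors' deposited table were led, among genes without a predicted name, by Xpo6, an actin exporter of the nucleus, at -27.1 points, then Ttll9 at -21.0, Dmtf1 at -20.5, Olfm2 at -19.8 and Ahdc1 at -18.7. Wdr11 had the smallest adjusted p there (15.5 points, adjusted p = 0.000129). Cyp39a1, an oxysterol hydroxylase, at 10.7, Myh9, a non-muscle myosin, at -11.1, Nadk, the kinase that makes NADP, at 16.8 and Nup98, a nuclear pore protein, at 10.3 points came next in the authors' deposited table.

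In blood at week 24 most named windows were higher. Skint3 at 21.0 points, Slain2 at 20.6, Dtx4 at 17.8 and Casq2, a calcium store protein of muscle, at 17.6 were among the larger increases, by the authors' deposited table. Icos, a co-stimulatory receptor of T cells, stood there at 12.5 points (adjusted p = 0.00591). Dgkd at 10.4, Frmd6 at 12.3 and Rxfp1, a relaxin receptor, at 12.2 followed by adjusted p, by the authors' deposited table. Among the 12 lower windows were Sult2a3 at -14.5, Zfp934 at -12.9, and Adgrf1, Uvssa and Tmem114 at -12.7 points each in the authors' deposited table. Uvssa, a factor of transcription-coupled repair, had the smallest adjusted p in the list (0.00136).

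In blood at week 8 the largest increases and the small adjusted p-values belonged to different genes. Tyr, the pigment enzyme tyrosinase, stood at 34.5 points in the authors' deposited table (adjusted p = 0.00871, chr7:87447001-87448000). Ikzf1, the lymphoid transcription factor Ikaros, stood there at 26.2 points (adjusted p = 0.0159, chr11:11741001-11742000), and its window lay 30.9 kb inside a gene of 88.0 kb. Acsm1 at 24.98, Nlrp4e at 18.5 and Pfkp, a phosphofructokinase, at 17.3 points followed by size, by the authors' deposited table. Nlrp4e also had a lower window in this list, at -10.7 points. The largest decreases there were Tulp3, a protein of ciliary transport, at -33.9 points, Cd93 at -20.6, Agbl3 at -20.5, Sema4a, an immune semaphorin, at -20.4 and Tspoap1 at -18.8.

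The smallest adjusted p-values of that list all came with decreases. Mxi1, an antagonist of Myc, stood at -10.8 points in the authors' deposited table (adjusted p = 8.82e-09, chr19:53313001-53314000). Pdgfra, a receptor of platelet-derived growth factor, at -12.5 points (adjusted p = 1.27e-08) and Cdx2, a homeobox factor of the intestine and trophoblast, at -10.8 (adjusted p = 3.1e-08) followed in the authors' deposited table. Metap2, an aminopeptidase, at -10.9 and Ahdc1 at -16.0 points came next there.

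Lower windows of blood at week 8 were concentrated at and near transcript starts inside the genes. This was measured for windows whose own gene has an entry in the RefSeq promoter table, 426 of 532 in that list, and for the 278702 rule-meeting grid windows in such genes. Of the 2933 grid windows that hold a tabled transcript start, 83 were in the blood week 8 list, or 28.3 per 1000, and all 83 were lower. Of these, 75 held a start of the gene they lay in, and 8 held only a start of another gene, coding or noncoding. Windows up to 1 kb from a start were called at 10.9 per 1000 (68), those 1 to 5 kb away at 2.04 (112), those 5 to 10 kb away at 1.02 (55), and those over 10 kb away at 0.671 (108). The share lower was 98.5% up to 1 kb and 76.9% over 10 kb. These rates describe the list and were not tested, since its windows share libraries.

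The other 5 lists together showed no such slope beyond the window that holds the start. They were called at 2.39 per 1000 grid windows with a start (7 windows), 1.44 up to 1 kb, 1.62 at 1 to 5 kb, 1.36 at 5 to 10 kb and 1.42 over 10 kb. All 7 windows with a start were lower, 6 of them in hippocampus at week 3 and 1, in Neu2, a sialidase gene, in blood at week 3. Hippocampus at week 3 alone was called at 2.05 per 1000 with a start, 0.319 up to 1 kb and 0.323 over 10 kb away. No window with a tabled start was called in hippocampus at weeks 8 and 24 or in blood at week 24.

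**Figure D3:**
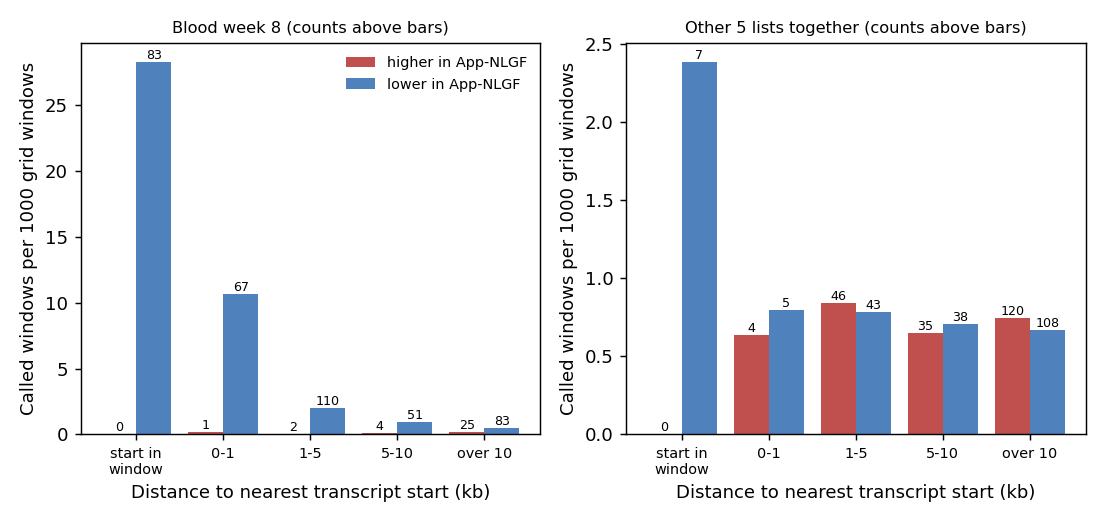
Called windows per 1000 grid windows that meet the position rule (y axes, with different ranges) by distance to the nearest tabled transcript start in kb (x axes), for blood at week 8 (left) and the other 5 lists together (right); red bars are higher and blue bars lower in App-NLGF, with counts of windows above the bars. In blood at week 8 the lower windows fall from 28.3 per 1000 at starts to 0.516 over 10 kb away.

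Rates in blood at week 8 also differed by distance from gene ends and by gene length. Windows 1 to 2 kb from the nearer coding gene end were called at 4.67 per 1000 and those over 10 kb away at 0.894. When each gene was cut into 5 equal parts from its 5′ to its 3′ end, the opening part was called at 2.76 per 1000 and the closing part at 0.916. Hippocampus at week 3 had the same order at lower rates, 0.515 per 1000 at 1 to 2 kb from an end and 0.298 over 10 kb away, and 0.521 in the opening and 0.284 in the closing part. Hippocampus at week 24 had that order too, at 0.412 and 0.365 by distance, and 0.521 and 0.284 by part. Hippocampus at week 8 and blood at week 24 had the reverse order in both measures, and blood at week 3 by distance only. The other 5 lists together stood at 1.72 and 1.495 by distance from an end and at 1.80 and 1.42 in the opening and closing parts. Genes under 10 kb held 61 windows, all lower, at 4.92 per 1000, and genes of 50 to 100 kb held 181 at 1.13 per 1000. The median gene length was 32.1 kb in this list, against 46.1 kb over the grid and 44.1 to 50.3 kb in the other 5 lists. In the other 5 lists together genes under 10 kb were called at 1.37 per 1000 and genes of 50 to 100 kb at 1.502. These 17 windows in genes under 10 kb were higher in 13, the opposite direction to blood at week 8.

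The starts inside called windows of blood at week 8 were richer in CpG than those over the grid. The 83 windows with a start had a median of 20 CG in the 300 bases around it (range 1 to 40), against 6 (range 0 to 67) over the 2933 grid windows with a start. Of grid windows with a start of 15 or more CG, 64 of 737 were in the list, or 8.68% (interval 6.75 to 10.95). Starts of 5 to 14 CG gave 18 of 1049 (1.72%), starts of 0 to 4 CG gave 1 of 1147 (0.0872%, at Lmna), and windows without a start 343 of 275769 (0.124%). In the other 5 lists together 1 of the 737 CpG-rich starts was called (0.136%), against 0.145% of windows without a start. Starts of 5 to 14 CG gave 4 of 1049 there (0.381%), and starts of 0 to 4 CG 2 of 1147 (0.174%). Coverage and CpG number per window were not analysed here, and their part in these rates was not tested.

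**Figure D4:**
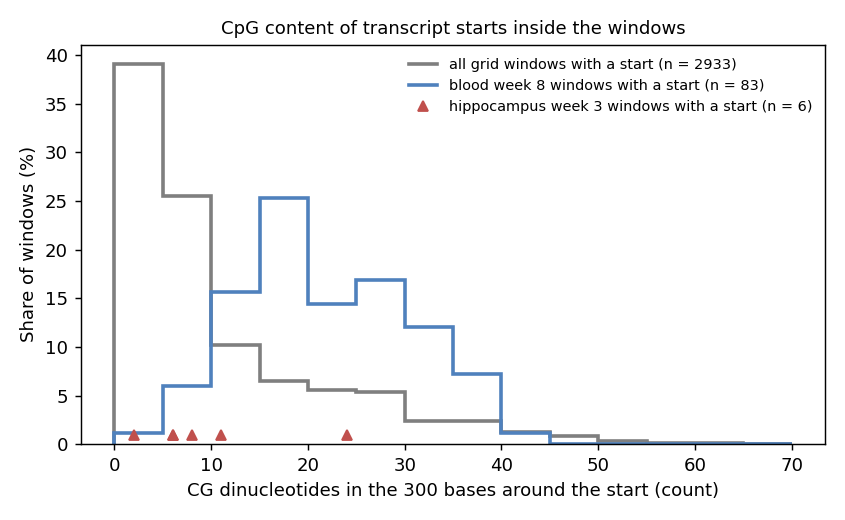
Share of windows in % (y axis) by the number of CG dinucleotides in the 300 bases around the transcript start they hold (x axis, bins of 5), for all 2933 rule-meeting grid windows with a start (grey) and the 83 of blood at week 8 (blue); red triangles mark the 6 windows of hippocampus at week 3 by their CG count only. The blue outline has its median at 20 and the grey one at 6.

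The starts inside called windows of blood at week 8, CpG-rich or not, belonged to genes of many kinds. Ptpn5, a neuronal tyrosine phosphatase, stood at -14.4 points with 24 CG in the authors' deposited table and the promoter entry, and Stk25, a kinase of the Golgi, at -13.1 with 26. Nfkb2, a subunit of NF-kappaB, stood at -12.7 points with 25 CG in the authors' deposited table and its entry, Myo1c, an unconventional myosin, at -12.2 with 32, and Pmp22, a myelin protein of peripheral nerve, at -12.1 with 30. Aph1b, a subunit of the gamma-secretase that cuts the amyloid precursor, stood at -11.2 points with 24 CG at the start in the same sources. Apoe, the apolipoprotein of brain lipid transport, stood at -10.4 with 10. Sema4a had the largest decrease among the 83, -20.4 points in the authors' deposited table, at a start with 5 CG. The differences at the 83 starts ran from -20.4 to -10.002 points, with a median size of 11.2. Windows under 10 points were not in the list, and over all its 532 windows the median size was 11.5.

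The median was 20 CG at starts called in blood at week 8 and 6 over grid windows with a start. The starts called in hippocampus at week 3, in 6 windows, ranged from 2 to 24 CG, and their median of 7 was near that of the grid. Besides Lmtk3 and Aspa they were Sh2d6 at -19.7 points, Adcy10, a soluble adenylyl cyclase gene, at -13.0 (start of a noncoding gene), Egfl7, an endothelial secreted protein, at -10.5 and Snapc3 at -10.4 in the authors' deposited table. Snapc3, part of the complex that activates small nuclear RNA genes, was the one with 24 CG.

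The 35 higher windows of blood at week 8 lay elsewhere. Of the 32 in genes with an entry, 90.6% lay over 5 kb from any tabled start, with a median distance of 25.5 kb. Over the grid 19.3% of windows lay 5 to 10 kb and 57.8% over 10 kb from a start, with a median of 12.5 kb. Of the 394 lower windows 34.0% did, with a median of 1.99 kb. The higher windows had a median difference of 14.03 points and lay in genes with a median length of 66.0 kb, against -11.4 points and 32.4 kb for the lower. Besides Ikzf1 they included Slamf1, a receptor of lymphocytes, at 16.5 points, Pecam1, an adhesion protein of endothelium and leukocytes, at 12.6, and Cd226, a receptor of natural killer and T cells, at 12.2 in the authors' deposited table. These 3 genes were picked after their values were seen. Of the blood lineage list, Ikzf1 was higher, and Gfi1, a repressor of myeloid cells, at -12.3 points and Bcl11b, a T cell factor, at -11.1 were lower in that table.

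Genes with more than 1 window were found almost only in blood at week 8. There 38 of 488 genes held at least 2, with all windows lower in 34 and both signs in 4, and 16 pairs of windows lay side by side. That list held 532 windows, 93.4% of them lower, against 53 to 126 windows in each other list. The number of such genes expected from list size was not computed, so nothing is read from these counts. In hippocampus at week 8, 2 genes, Olfr91 and Fam91a1, held 2 windows each, of both signs, and the other 4 lists held none. Skor1, a neuronal co-repressor gene of 10.8 kb, had 4 windows in blood at week 8, at -13.8, -12.4, -11.2 and -11.6 points in the authors' deposited table, and 3 of them were adjacent. Nr4a2, the nuclear receptor Nurr1, had 3 at -10.5, -11.8 and -10.3 points there. Rara, the retinoic acid receptor alpha, had 3 at -13.9, -10.8 and -11.4, and Tbx5, a T-box factor of heart and forelimb, 3 at -12.0, -10.2 and -10.3 in the authors' deposited table. Besides the window with miR-139, Pde2a had 2 more there, at -10.3 and -10.2 points. Windows of 1 gene share libraries and cells and are not independent measurements.

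No window was called in more than 1 list, where each list held 0.0152% to 0.152% of the rule-meeting grid windows, and nothing is read from that count. Of the 964 genes 32 held windows in more than 1 list. Of these, 16 had windows in both tissues, with the same sign throughout in 11 and both signs in 5. Within blood 3 had the same sign and 6 both signs, and within hippocampus 1 and 6. Beside these counts, 93.4% of the windows were lower in blood at week 8 and 60.5% were higher at week 3. In hippocampus 77.4% were lower at week 3, and 56.2% and 54.0% were higher at weeks 8 and 24. The number expected from the lists was not computed, so nothing is read from these counts or from the 32 genes. Naalad2, a peptidase related to the enzyme that cleaves N-acetylaspartylglutamate, was in 3 lists, at -18.0 points in hippocampus at week 3, 21.7 at week 8 and -10.8 in blood at week 8 in the authors' deposited table. Its windows lay at chr9:18354001-18355000, chr9:18366001-18367000 and chr9:18389001-18390000. Gpc1, a heparan sulfate proteoglycan, had windows side by side in both tissues at week 3, at -15.1 points in hippocampus and -15.3 in blood (chr1:92834001-92835000 and chr1:92833001-92834000) in the authors' deposited table.

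Other genes of both tissues had the same sign at some distance. Bdh1, a ketone body enzyme, stood at -16.5 points in hippocampus at week 3 and -10.3 in blood at week 8 in the authors' deposited table. Ptprs, a receptor phosphatase of axons, stood there at -11.7 and -11.8 points in the same lists, and Sulf2, an extracellular sulfatase, at -18.7 in hippocampus at week 24 and -12.9 in blood at week 8. Lepr, the leptin receptor, turned sign within hippocampus, with 11.1 points at week 8 and -14.0 at week 24 in the authors' deposited table, in windows that do not overlap. Rxra, a retinoid X receptor, stood at 10.8 points in blood at week 3, and at -11.4 and -10.8 at week 8 in that table.

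Gene lists were read as the share of their genes that held a window, beside 3.40% of the 14462 coding genes under 100 kb that could hold one in blood at week 8. Developmental transcription factors (homeobox, Sox, Fox, T-box and bHLH) stood highest. Of 108 such genes 25 held a window (23.1%), with 32 windows, all lower, beside 93.4% lower of all 532 windows there. Six2, a factor of kidney progenitors, had windows at -13.5 and -12.1 points in the authors' deposited table, and Tfap2c, a factor of trophoblast and germ cells, 1 at -14.3. Six3, a forebrain factor, stood at -13.7 and -10.7 there, Pax9, a factor of teeth and skeleton, at -11.7 and -10.8, and Hoxb6 at -13.1. In each of the other 5 lists at most 1 of the 108 held a window (0.926%), near the 0.366% to 0.878% of all coding genes there. These were Isl1 at -14.9 points in hippocampus at week 3, Hoxa3 at 11.0 at week 24 and Pax8 at -10.5 in blood at week 3 in the authors' deposited table.

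Neuronal lists also held lower windows in blood at week 8. There 93.4% of all 532 windows were lower and 3.40% of all coding genes held a window, so nothing is read from all-lower counts this small. Of 71 ion channel genes 8 did (11.3%, all lower), among them Kcnk13, a potassium channel, at -11.0 points in the authors' deposited table. Of 83 synapse and activity genes 9 did (10.8%, all lower). Gad2 and Gad1, the enzymes that make GABA, stood at -12.7 and -11.2 points there, Unc13a, a vesicle priming factor, at -12.4 and Shank1 at -12.5. In hippocampus the same synapse list held 2 windows at week 3, Drd3 at -12.1 and Htr3a at -10.6, and 1 at week 8, Lrrc4b, in the authors' deposited table. The ion channel list held 1 window in hippocampus at week 8, at -16.0 points, and 1 at week 24. The latter lay in Piezo1, a mechanosensitive channel, at 14.6 points in that table.

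Of 50 genes of Alzheimer risk loci and App processing, 5 held a window in blood at week 8 (10%, all lower). There 3.40% of all coding genes held a window and 93.4% of all windows were lower. Besides Aph1b and Apoe they were Fermt2, a kindlin, at -13.6, Mme, the amyloid-degrading protease neprilysin, at -11.5 and Tspan14, a tetraspanin, at -10.2 points, as the authors' deposited table gives them. In hippocampus 1 of the 50 genes held a window at week 3 and 1 at week 24 (2% each, beside 0.857% and 0.878% of all coding genes), too few to read as a result about the list. They were Bace1, the beta-secretase, at -13.8 points (adjusted p = 0.0817), and Lrp1, a lipoprotein receptor, at 14.4 in that table. App itself exceeds 100 kb and could hold no such window.

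In the remaining lists most windows of blood at week 8 were also lower, beside 93.4% lower of all 532 windows there. Their shares of genes stand beside 3.40% of all coding genes. Cytoskeleton and motor genes held 4 of 51 genes (7.84%, all lower). DNA methylation and chromatin regulators held 5 of 76 (6.58%, all lower), among them Chd8 at -15.4, Setd5 at -14.4 and Hdac5 at -12.8 points in the authors' deposited table. Lipid and cholesterol genes held 4 of 63 (6.35%), with 6 lower windows. Sphk1, a sphingosine kinase, stood at -15.0 and -10.9 points and Abcg1, a cholesterol exporter, at -14.9 in the authors' deposited table. Wnt, Notch, Hedgehog, BMP and FGF genes held 5 of 86 (5.81%), with 1 window higher and 5 lower. Wnt6 had both signs, 12.8 and -10.1 points in the authors' deposited table. Extracellular matrix genes held 3 of 58 (5.17%, all lower) and blood lineage genes 3 of 67 (4.48%, 1 higher, 2 lower). Repair and cell cycle genes held 3 of 80 (3.75%, 4 windows, all lower) and energy and insulin genes 3 of 80 (3.75%, 1 window higher, 3 lower). Oligodendrocyte, myelin and astrocyte genes held 1 of 38 (2.63%, lower) and microglia, complement, interferon and lysosome genes 1 of 58 (1.72%, lower).

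In hippocampus at week 3, where 0.857% of the coding genes held a window, energy and insulin genes held 3 of 80 (3.75%). All were lower, beside 77.4% of all 124 windows there. They were Igf1 at -17.5, Pik3cd at -17.0 and Igf2r at -14.3 points, as the authors' deposited table gives them. The oligodendrocyte list held 2 of 38 in the same list, Myrf, the myelin regulatory factor, at -17.8 (adjusted p = 0.0536) and Aspa at -10.5 points in the authors' deposited table. Counts as small as these are given as values, and no list was tested. The lists differ in gene length and CpG content, whose part in their shares was not tested.

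**Figure D5:**
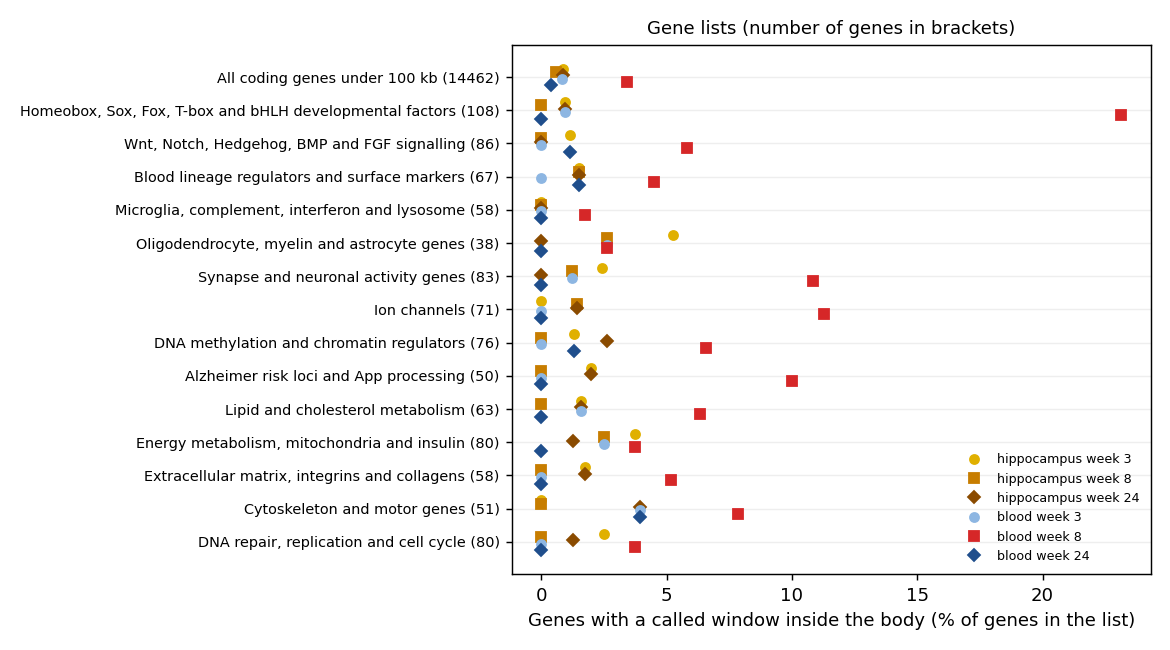
Share of genes with a called window inside the body, in % of the list's genes that could hold one (x axis), for each gene list and for all coding genes under 100 kb (y axis, gene numbers in brackets); each symbol is a tissue and week list. For developmental factors the blood week 8 symbol stands at 23.1%, against 3.40% for all coding genes.

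Chromosome 16, which carries App (chr16:84952666-85175255), held 34 of the 1043 windows (3.26%), beside 3.69% of the rule-meeting grid windows. Within 1 Mb of App there were 2, both in hippocampus and both lower: Cyyr1 at week 8, 321 kb away, at -21.2 points (adjusted p = 0.0307), and Adamts5 at week 3, 724 kb away, at -13.3 (adjusted p = 0.000689) in the authors' deposited table. No further window lay within 5 Mb. Sequence carried along with the edited App allele cannot be told apart from its effect at such distances.

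At the limits of the position rule, Ppp1r16b (99.6 kb, -11.3 points in blood at week 8) and Lcp1 (99.7 kb, -10.5 in hippocampus at week 24) fell just inside the length limit in the authors' deposited table. Scel (100.3 kb, -12.0 points in blood at week 8) and Sestd1 (100.3 kb, -14.0 in hippocampus at week 3) fell just outside. For the distance from gene ends, Cope (1002 bases, -10.5 points) and Doc2g (1005 bases, -16.6) fell inside, and Pigv (995 bases, -10.1) and Tarbp2 (997 bases, -10.9) outside, by the authors' deposited table.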

How the data were processed

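DNA of hippocampus and blood was sheared, made into libraries, bisulfite-converted and amplified, per the labels' protocols. The submitters' processing notes name FastQC, Trim Galore, Bismark, methylKit and mm10, with versions, coverage filters and the test not given in the sources used here. Each tissue and week was compared between genotypes separately, and sex was a covariate, per the design text. The authors' deposited table gives 1 kb windows with p-values, adjusted p-values and the difference in percentage points. IDs there call hippocampus "brain".

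The number of per-library columns used was 0, so depth is unknown and no test was run. Windows were placed on RefSeq GRCm38.p6 genes, and rates used the 349312 grid windows that meet the same rule. Strand, starts and CpG counts came from RefSeq promoter entries (250 bases before to 50 after a start, no entry for some genes), for windows whose own gene has one. The number of windows tested was recovered by dividing p by adjusted p, which assumes Benjamini-Hochberg adjustment, and 78.1% to 89.9% of ranks were whole within 0.02. The recovery and the position code were tested on simulated data. Python 3.11.15, pandas 2.3.3, numpy 2.4.6, scipy 1.17.1 and matplotlib 3.10.9 were used.

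The members and gene lists were chosen with earlier results of these data known. Named genes were, per list and without predicted names, the 5 largest increases, 5 largest decreases and 5 smallest adjusted p, genes with 3 or more windows in a list or windows in 3 lists, and up to 6 of each gene list. Genes with windows at starts, genes in 2 lists, further gene list members, genes of the higher blood windows and copy families were added after their values were seen. Some genes that the rule names are not reported here. Alternatives changed the adjusted p, the size, merging, distance, gene length, lying wholly inside a gene, gene names and chromosome 16.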

Additional observations from a re-analysis of the deposited data

How the results depend on the processing

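Of 110 values over 13 results, 83 stayed within the margin (a count within 1.5 times, a share within its 95% interval), 26 moved and 1 turned. Of the 83, 12 came from requiring windows wholly inside a gene, which the position rule already ensures, so they could not move. Merging windows within 10 kb changed the values of blood at week 8 only. Among windows of at least 15 points, the share higher in hippocampus at week 24 was 48.0%, where it was 54.0% over all. At an adjusted p under 0.01 the counts, in the order hippocampus weeks 3, 8, 24 and blood weeks 3, 8, 24, were 6, 4, 8, 17, 234 and 3, and at 15 points or more 45, 26, 50, 37, 49 and 8. In genes under 50 kb they were 66, 53, 62, 63, 351 and 27. More than 5 kb from gene ends, hippocampus at week 3 kept 79 and blood at week 8 kept 258. At an adjusted p under 0.01 the share higher was 75% in hippocampus at week 8, 76.5% in blood at week 3 and 2.56% in blood at week 8. The last was 28.6% at 15 points or more, 10.1% beyond 5 kb from ends and 3.13% in genes under 50 kb. Stricter limits keep fewer windows by construction; the cause of the moves in share was not tested.

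Leaving out windows that hold or lie within 1 kb of a tabled start was an alternative chosen after seeing the data. Every result stayed within that margin. Blood at week 8 fell from 532 to 381 windows, and its share higher went from 6.58% to 8.92%. Windows in genes without a start entry could not be left out, and 426 of the 532 lay in genes with an entry. The alternative is therefore incomplete, and no stability is read from it. CpG-rich starts in the blood week 8 list made up 7.43% at 10 or more CG and 7.89% at 20 or more, also chosen after seeing the data. No paired analysis was possible because the table holds no values per library. Coverage, levels and the spread between animals stand behind none of the values.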

Other observations

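Some windows lay in genes of families with many near-identical copies. Mappability and coverage were not analysed here, so the values are given as uncertain, and the part of read placement was not tested. The families (vomeronasal and olfactory receptors, Skint, Sult2a, Pramel, Nlrp4 and Nlrp9, Klra and Klrb, Akr1c and Sirp genes) were chosen after their values were seen. They held 25 of the 1043 windows (2.40%), of which 11 reached 20 points; since they were picked for their size, nothing is read from that number. Of 131 vomeronasal receptor genes 9 held a window in any list (6.87%), near the 6.70% of all coding genes under 100 kb, 3 higher and 6 lower. Their values ran, by the authors' deposited table, from -23.3 points at Vmn2r79 to 30.2 at Vmn2r92.

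Genes with symbols of Zfp and a number, which encode zinc finger proteins, were also chosen after their values were seen. Of 353 such genes 13 held a window in any list (3.68%), beside 6.70% of all coding genes under 100 kb. Of their 15 windows 3 were higher and 12 lower, beside 71.8% lower of all 1043 windows. In blood at week 8 they held 8, all lower, beside 93.4% lower of all 532 windows there. Nothing is read from these counts.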
